A study of Mus musculus with 18 samples.

Results

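Messenger RNA of 45 genes whose products build, tether or regulate the centrosome was followed in mouse dendritic cells (DCs) kept in collagen gels or in suspension. The genes were picked by name from a deposited table of read counts with 29875 genes. All 45 were found and all 45 were among the 13844 genes with enough counts to be tested. The cells came from bone marrow of wildtype C57Bl6/J mice aged 8 to 12 weeks, were grown with granulocyte-macrophage colony-stimulating factor and were matured from culture day 8 with lipopolysaccharide (LPS) at 200 ng/ml for 24 hours. They were then placed for 5 hours in gels of 1.7, 2.6, 3.5 or 4.4 mg/ml bovine collagen facing a source of the chemokine CCL19, or in the same chambers without collagen as 2 suspension control groups, with 3 biological replicates in each of the 6 groups. Where a suspension title says plus CCL19, its library name says no chemokine. The other suspension title does not mention CCL19, while its library name does. Both groups go by their titles below (suspension titled plus CCL19, suspension titled without CCL19). The second name means only that the title leaves CCL19 out, and no direction is drawn for the chemokine. Every group shares the wildtype genotype, the growth factor culture and the LPS stimulus. No group held unstimulated cells, and the cultures are bulk populations of cells differentiated in vitro.

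A centrosome consists of a pair of centrioles, held together by a protein linker and surrounded by pericentriolar material in which gamma-tubulin ring complexes start new microtubules. Appendage proteins on the older centriole anchor microtubules, and centriolar satellites are granules that ferry centrosomal proteins. Mature DCs are largely out of the cell cycle and use the centrosome as the main hub of their microtubules. Centriole duplication usually goes with the cell cycle.

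The 18 libraries held between 13062944 and 28059839 counts, and 3 counts, the limit that a count of 0 allows, correspond to 0.107 CPM (counts scaled to the library's total) in the largest and 0.230 CPM in the smallest library. These limits cover counting error only. One replicate number stands for one date in the library names, and replicates 1 and 3 share a name prefix that replicate 2 lacks. Libraries of like number deviated together, with a mean r of 0.43 over 45 pairs of libraries from different groups. The mean r of -0.21 over 90 pairs with different numbers follows largely from that value, since group means were subtracted first. The fit with the replicate number as a block is therefore given wherever it changes a call. Of 13 DC markers, *Flt3* was lower in collagen and the others did not pass, except *Itgax*, which was higher with the block. Eosinophil markers stood apart, since 8 of 8 tested were lower in collagen, with *Siglecf* at 2.75 ± 1.33 CPM in suspension (SD, n = 6) and 0.447 ± 0.297 CPM in collagen (SD, n = 12). Their summed level ran from 120 to 1363 CPM in suspension and from 14.7 to 168 CPM in collagen, with medians of 357 and 43.8 CPM. The part of other cell types in the values below was not tested, and in bulk RNA fewer cells of a type and less RNA per cell cannot be told apart.

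The 45 genes covered a wide range of transcript levels. Divided by exon length, mean CPM over the 18 libraries was highest for *Ccdc88b* (39.0 CPM per kb), followed by *Akna* (28.01), *Tubg1* (12.5), *Tubgcp2* (9.72) and *Cetn2* (9.06). At the other end stood *Ninl* at 0.0676 CPM per kb, with 0 to 38 counts in a library, *Cep72* at 0.129 and *Cep290* at 0.172 CPM per kb. *Ccdc88b* encodes a leukocyte protein of the hook-related family that binds microtubules, and *Akna* a protein that organises microtubules at the centrosome.

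First, all 12 collagen libraries were compared with all 6 suspension libraries. This asks whether a stay in a gel goes with another level of centrosome transcripts. Every gel faced CCL19, whereas the labels give it to only part of the suspension libraries. Matrix and chemokine thus cannot be fully told apart, here or in each density against suspension. At a false discovery rate (FDR) of 0.1 over all genes tested, by edgeR's quasi-likelihood test on the counts, 10 of the 45 genes were lower and 2 were higher in collagen. The background in this comparison was 12.4% of all genes called lower and 7.78% called higher, against 22.2% and 4.44% of the members. The genes that fell were *Crocc*, *Cep250*, *Pcnt*, *Akna*, *Ccdc88b*, *Odf2*, *Cep131*, *Cntrob*, *Tubgcp2* and *Tubgcp6*. Those that rose were *Stil* and *Poc1b*. The median log2 fold change of the members was -0.20, and 31 of 45 were below 0, whereas over all genes tested the median was 0.003 and 49.8% were below 0. The 33 members that did not pass lay between -0.90 (*Ninl*) and 0.96 (*Sass6*) on the log2 scale. With the replicate block 14 members passed, the same 12 and additionally *Cdk5rap2* and *Cenpj*, both lower, at backgrounds of 19.3% of all genes lower and 15.6% higher. All 12 moved in the same direction within each of the 3 replicates. That adds no independent support, since they were picked from these same libraries. Uncalled members such as *Ninl*, *Plk4* and *Cetn2* also kept their direction in all 3 replicates.

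**Figure D1:**
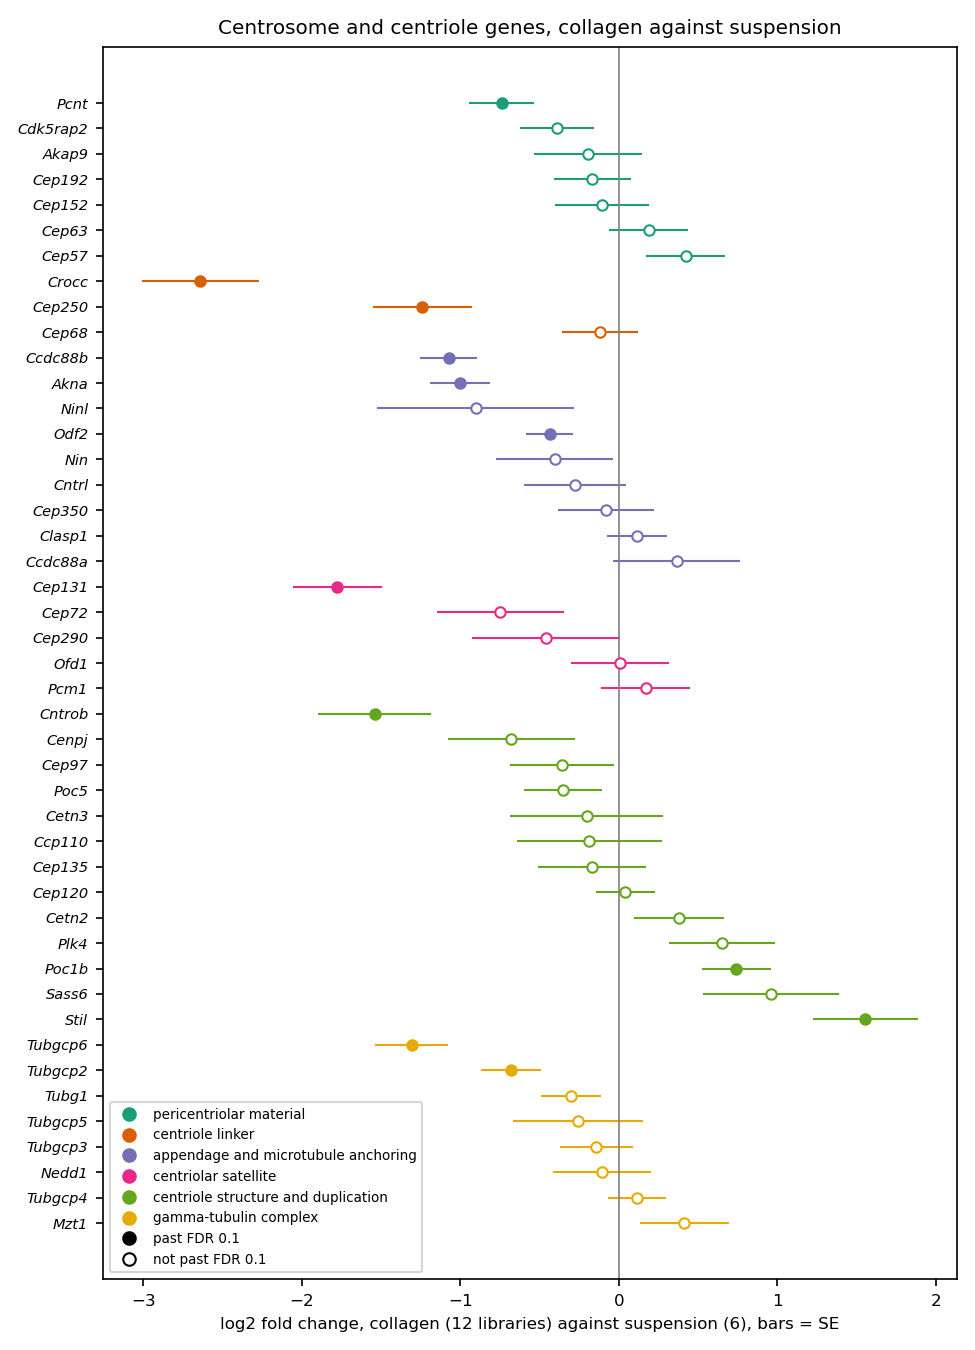
Log2 fold change of each of the 45 genes in collagen (12 libraries) against suspension (6 libraries), with its standard error, grouped and coloured by role; filled points passed an FDR of 0.1. The 12 filled points run from -2.64 for Crocc to 1.56 for Stil, and most members cluster within 1 unit of 0.

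In 4 members the collagen and suspension libraries did not overlap at all. These were *Crocc*, *Ccdc88b*, *Cep131* and *Tubgcp6*, with every collagen library below every suspension library, a pattern seen in 1.52% of all genes tested. No member lay above suspension in every collagen library, and 41 overlapped.

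The linker class has 3 genes, *Cep250*, *Crocc* and *Cep68*, of which 2 fell. Its median of -1.24, the lowest of the 6 roles, is the value of *Cep250* itself. *Cep250* (ENSMUSG00000038241, chr2:155956458-155998900 in GRCm38, plus strand) encodes cNAP1, the anchor that binds the linker to the centriole ends. It was at 58.0, 90.9 and 113 CPM in replicates 1, 2 and 3 of the suspension titled without CCL19 and at 45.4, 80.9 and 76.2 CPM in the suspension titled plus CCL19. In collagen of 1.7 mg/ml it was at 15.7, 50.3 and 51.7 CPM, at 2.6 mg/ml at 18.7, 48.2 and 62.6 CPM, at 3.5 mg/ml at 12.4, 47.9 and 38.9 CPM, and at 4.4 mg/ml at 14.4, 18.2 and 26.9 CPM. Replicate 1 was the lowest of the 3 in every group, and within each replicate all 4 gels were below both suspension libraries. The fold change was -1.24 ± 0.31 (log2, SE; edgeR adjusted p = 0.016), and -1.33 ± 0.17 with the block (adjusted p = 4.0e-05). The mean log2 differences within replicates 1, 2 and 3 were -1.76, -1.17 and -1.11. Without replicate 2 it did not pass (adjusted p = 0.17). All fits with libraries left out, here and below, were run without the block.

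*Crocc* (ENSMUSG00000040860, chr4:141016637-141060550, minus strand) encodes rootletin, the filament protein of the linker. It had the largest change of the 45 genes but a low level, 3.07 to 10.4 CPM in suspension (median 5.16) and 0.298 to 1.58 CPM in collagen (median 0.884), where libraries held as few as 4 counts. The fold change was -2.64 ± 0.37 (log2, SE; edgeR adjusted p = 0.00058), and it was not graded by density, with group means of 0.825, 1.01, 0.632 and 1.14 CPM from the loosest to the densest gel. *Cep68*, another linker component, did not differ over all gels, with -0.12 ± 0.24. It was at 5.89 ± 0.91 CPM in 4.4 mg/ml (SD, n = 3) and at 9.79 ± 0.94 CPM in suspension (SD, n = 6), and this comparison passed only with the block (-0.70 ± 0.28, adjusted p = 0.081).

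Among the 7 genes of the pericentriolar material (*Pcnt*, *Cdk5rap2*, *Akap9*, *Cep192*, *Cep57*, *Cep63* and *Cep152*), only *Pcnt* was called in collagen against suspension, and the class median was -0.17. *Pcnt* (ENSMUSG00000001151, chr10:76351263-76442786, minus strand) encodes pericentrin, the main scaffold of the pericentriolar material. It ran from 15.4 to 32.2 CPM in suspension (median 21.5) and from 7.96 to 22.9 CPM in collagen (median 13.5), so the ranges overlapped, while the 3 libraries of 4.4 mg/ml were all below the suspension range at 10.0, 11.2 and 9.58 CPM. The fold change was -0.74 ± 0.21 (log2, SE; edgeR adjusted p = 0.027). It did not pass without replicate 1 (adjusted p = 0.28) or without replicate 2 (0.20). *Cdk5rap2*, which recruits gamma-tubulin complexes to the material, was at 20.6 ± 7.07 CPM in collagen (SD, n = 12) and 27.2 ± 6.05 CPM in suspension (SD, n = 6), and passed only with the block (-0.45 ± 0.16, adjusted p = 0.039).

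Of the 9 genes for appendages and microtubule anchoring (*Nin*, *Ninl*, *Akna*, *Odf2*, *Cntrl*, *Cep350*, *Clasp1*, *Ccdc88a* and *Ccdc88b*), 3 fell and none rose, with a class median of -0.40. *Ccdc88b* (ENSMUSG00000047810, chr19:6844623-6858211, minus strand) was between 242 and 418 CPM in suspension (median 267) and between 79.9 and 208 CPM in collagen (median 153). The lowest suspension library was thus above the highest gel. The fold change was -1.07 ± 0.18 (log2, SE; edgeR adjusted p = 0.0015). *Odf2*, an appendage protein of the mother centriole, changed least among the called genes, from 48.2 ± 10.2 CPM in suspension (SD, n = 6) to 36.1 ± 6.51 CPM in collagen (SD, n = 12), and its call (-0.44 ± 0.15, adjusted p = 0.063) was lost when any 1 replicate was left out. *Nin*, which encodes the microtubule anchor ninein, was at 31.0 ± 21.7 CPM in suspension and 22.9 ± 14.6 CPM in collagen, and did not pass (adjusted p = 0.52). *Clasp1*, a stabiliser of microtubule plus ends, was at 44.9 ± 18.3 and 47.0 ± 15.2 CPM, with a difference of 0.12 ± 0.19 that did not pass either.

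*Akna* (ENSMUSG00000039158, chr4:63367125-63403354, minus strand) was lowest in the densest gel. It was at 281, 307 and 218 CPM in replicates 1, 2 and 3 of the suspension titled without CCL19 and at 262, 168 and 182 CPM in that titled plus CCL19. In the gels it was at 121, 164 and 158 CPM with 1.7 mg/ml, at 106, 149 and 252 CPM with 2.6 mg/ml, at 87.7, 135 and 122 CPM with 3.5 mg/ml, and at 60.0, 54.6 and 80.6 CPM with 4.4 mg/ml. All 3 libraries of the densest gel were below every other library, and replicate 3 of 2.6 mg/ml was the only gel library within the range of the suspension cells. Against suspension the fold change over all gels was -1.003 ± 0.19 (log2, SE; edgeR adjusted p = 0.0031), and at 4.4 mg/ml it was -1.85 ± 0.30 (adjusted p = 0.0023). The within-replicate differences at 4.4 mg/ml were -2.18, -2.05 and -1.30.

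**Figure D2:**
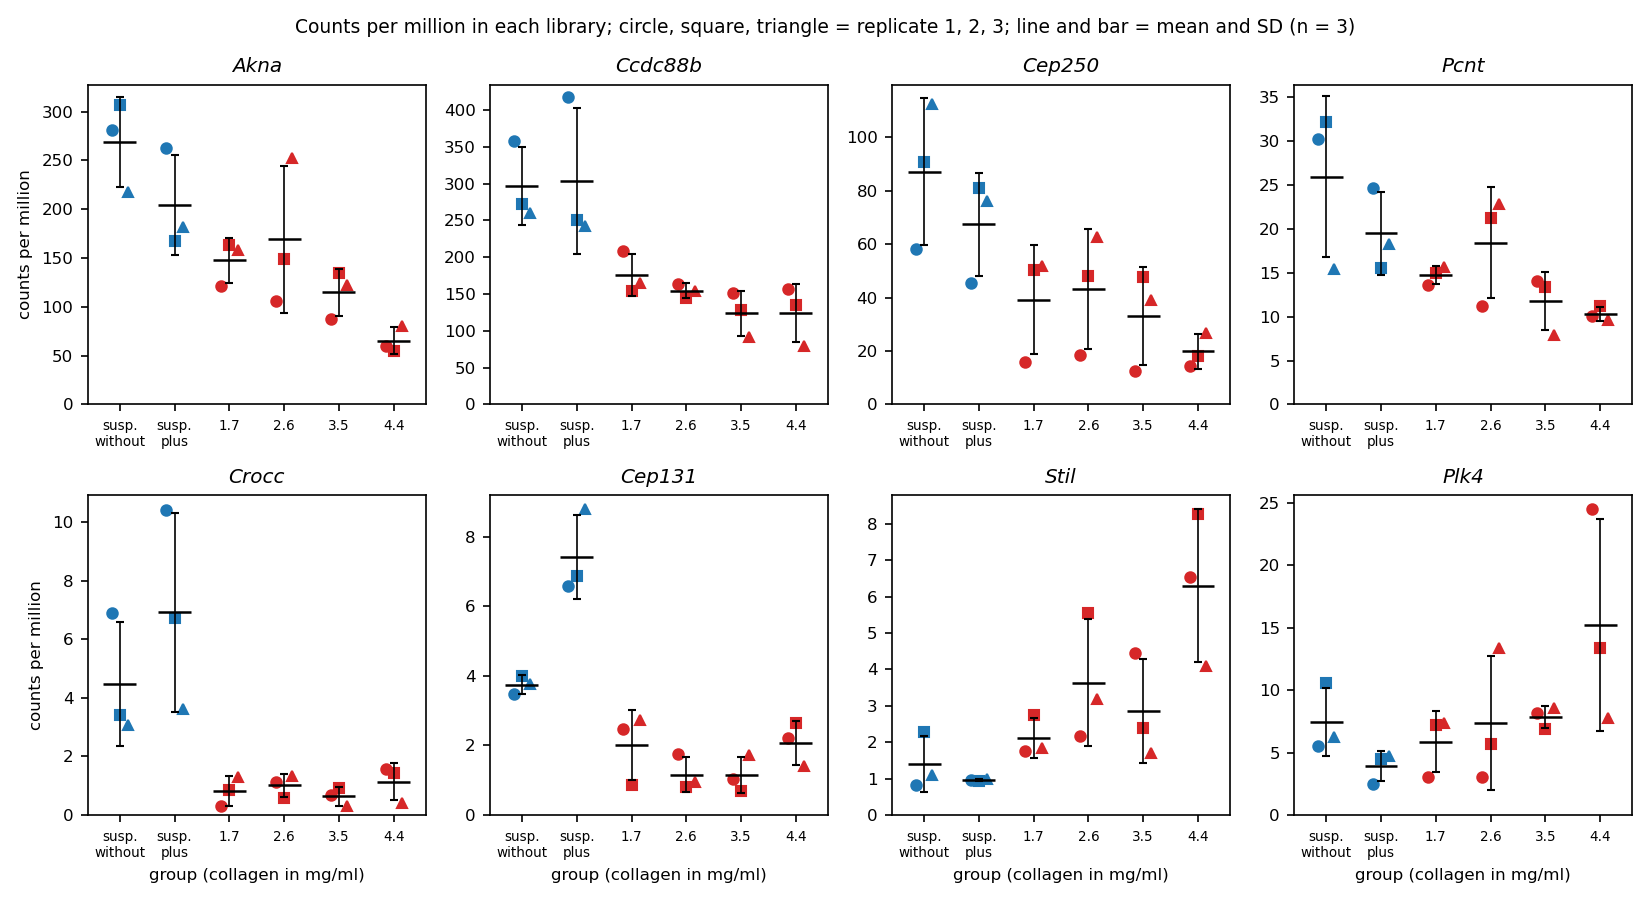
CPM of 8 centrosome genes in each of the 18 libraries, with symbols for replicates 1, 2 and 3, blue for suspension, red for collagen, and the mean and SD of each group (n = 3); axes start at 0. Akna is lowest at 4.4 mg/ml, Crocc and Cep131 are low at every density, and Stil and Plk4 have their highest means at 4.4 mg/ml.

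The 5 satellite genes (*Pcm1*, *Cep131*, *Cep290*, *Cep72* and *Ofd1*) included 1 that fell. *Cep131* (ENSMUSG00000039781, chr11:120064430-120086827, minus strand) was at 3.47, 4.01 and 3.76 CPM in the suspension titled without CCL19 and at 6.59, 6.86 and 8.79 CPM in that titled plus CCL19, and between 0.702 and 2.73 CPM in the 12 gels. Its fold change was -1.78 ± 0.28 (log2, SE; edgeR adjusted p = 0.0011). *Pcm1*, the scaffold of the satellites, was at 18.1 ± 10.8 CPM in suspension (SD, n = 6) and 19.7 ± 9.33 CPM in collagen (SD, n = 12), a difference of 0.17 ± 0.28 that did not pass.

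The 8 genes of the gamma-tubulin complex included 2 that fell and none that rose. *Tubg1*, the nucleating tubulin itself, was at 32.2 ± 8.37 CPM in suspension (SD, n = 6) and 26.2 ± 5.61 CPM in collagen (SD, n = 12), with a difference of -0.30 ± 0.19 that did not pass (adjusted p = 0.32). Of its partners, *Tubgcp6* (ENSMUSG00000051786, chr15:89098357-89123112, minus strand) was between 12.0 and 20.6 CPM in suspension and between 2.75 and 10.7 CPM in the gels, a change of -1.31 ± 0.23 (log2, SE; edgeR adjusted p = 0.0022). *Tubgcp2* was at 51.3 ± 14.8 CPM in suspension and 32.3 ± 6.82 CPM in collagen, a change of -0.68 ± 0.19 (adjusted p = 0.027) that did not pass without replicate 2 or 3 (adjusted p = 0.24 and 0.21). *Tubgcp3*, *Tubgcp4*, *Tubgcp5*, *Mzt1* and *Nedd1* were not called. *Selenoo* overlaps 8.71% of the exon bases of *Tubgcp6* and *Zfp511* 5.43% of those of *Tubgcp2*, both on the opposite strand. *Trp53bp1* overlaps 25.4% of those of *Tubgcp4*. Since the use of strand in counting is not stated, reads of these pairs cannot be told apart and the values of the 3 genes are uncertain, the more so as *Selenoo* held 5590 counts in all and *Tubgcp6* 3323.

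The 13 genes for centriole structure and duplication (*Cenpj*, *Sass6*, *Stil*, *Plk4*, *Cep120*, *Cep135*, *Cep97*, *Ccp110*, *Cetn2*, *Cetn3*, *Cntrob*, *Poc1b* and *Poc5*) held both called genes that rose. *Stil* (ENSMUSG00000028718, chr4:115000159-115043196, plus strand) and *Plk4* (ENSMUSG00000025758, chr3:40800019-40816883, plus strand) encode a core duplication factor and the kinase that starts duplication. Their promoters, from 250 bases before to 50 after the RefSeq start in GRCm38.p6, are shown because both genes were higher in the densest gel, with matches to the letters CCAAT, on either strand, in capitals (chr4:114999868-115000167 and chr3:40799701-40800000, both plus strand).
Stil: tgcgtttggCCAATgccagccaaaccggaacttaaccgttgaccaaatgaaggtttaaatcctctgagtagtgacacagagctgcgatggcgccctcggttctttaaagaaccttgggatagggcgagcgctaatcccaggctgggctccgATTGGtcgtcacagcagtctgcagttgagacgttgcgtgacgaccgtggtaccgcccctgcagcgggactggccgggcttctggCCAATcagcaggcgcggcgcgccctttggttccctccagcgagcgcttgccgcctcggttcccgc
Plk4: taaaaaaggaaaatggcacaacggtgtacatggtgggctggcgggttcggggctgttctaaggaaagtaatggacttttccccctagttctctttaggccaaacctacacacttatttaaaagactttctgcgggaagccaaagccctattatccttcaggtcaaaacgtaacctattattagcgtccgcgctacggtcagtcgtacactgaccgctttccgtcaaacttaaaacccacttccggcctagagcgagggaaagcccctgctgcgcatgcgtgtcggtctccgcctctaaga
The *Stil* window holds 3 matches to CCAAT, a box common in promoters of cell cycle genes, and the *Plk4* window none. At least 1 match lies in 37.4% of all 32851 promoters of this length and in 24 of 47 promoters of the 36 members with an entry. The letters TTTNNCGC, as bound by E2F factors, and TTTGAA, the cell cycle homology region, were found in neither window on either strand, and in 5.17% and 17.9% of all promoters. A match is a description of the sequence only.

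*Stil* was at 0.811, 2.28 and 1.10 CPM in replicates 1, 2 and 3 of the suspension titled without CCL19 and at 0.970, 0.929 and 0.995 CPM in that titled plus CCL19. In gels it was at 1.77, 2.75 and 1.84 CPM with 1.7 mg/ml, 2.16, 5.56 and 3.19 CPM with 2.6 mg/ml, 4.45, 2.39 and 1.71 CPM with 3.5 mg/ml, and 6.54, 8.27 and 4.09 CPM with 4.4 mg/ml. Replicate 2 of the first suspension group was above several gel libraries, whereas all 3 libraries of 4.4 mg/ml exceeded every suspension library. *Stil* held only 13 to 145 counts in a library. The fold change over all gels was 1.56 ± 0.33 (log2, SE; edgeR adjusted p = 0.0063) and at 4.4 mg/ml 2.43 ± 0.42 (adjusted p = 0.0028). *Plk4* did not pass over all gels (0.65 ± 0.33, adjusted p = 0.21). At 4.4 mg/ml it was at 24.5, 13.4 and 7.79 CPM against 2.50 to 10.6 CPM in suspension, so that replicate 3 lay within the suspension range. That change was 1.49 ± 0.44 (adjusted p = 0.043), with within-replicate differences of 2.68, 0.94 and 0.50, and it did not pass without replicate 1 (0.84, adjusted p = 0.25).

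*Poc1b*, a component of the centriole wall, was at 7.20 ± 0.92 CPM in suspension (SD, n = 6) and 12.1 ± 3.34 CPM in collagen (SD, n = 12), a change of 0.74 ± 0.22 (edgeR adjusted p = 0.034) that did not pass without replicate 2 or 3 (0.26 and 0.19). *Galnt4* overlaps 10.0% of its exon bases on the same strand, so its count is uncertain. *Cntrob*, which encodes centrobin of the daughter centriole, was at 1.57 to 5.05 CPM in suspension and 0.349 to 2.24 CPM in collagen, with 6 to 109 counts in a library, a change of -1.54 ± 0.36 (adjusted p = 0.01). It did not pass without replicate 1 (-0.82, adjusted p = 0.30), whose suspension libraries were the highest at 4.21 and 5.05 CPM. *Cenpj*, needed for centriole elongation, was called lower only with the block (-0.78 ± 0.34, adjusted p = 0.095). *Cetn2*, the centrin used to mark centrioles, was at 12.2 ± 3.59 CPM in suspension and 16.3 ± 8.17 CPM in collagen (0.38 ± 0.28, adjusted p = 0.41), and *Cep120* at 45.9 ± 13.1 and 47.2 ± 9.27 CPM (0.04 ± 0.18, adjusted p = 0.91).

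Next, each density was compared with the 2 suspension groups. These 4 comparisons share their 6 suspension libraries, so their calls are not independent of each other. At 1.7 mg/ml none of the 45 genes passed in edgeR, with 0.0361% of all genes called. An unadjusted p under 0.05 was found for 6 members and for 1113 of the 13844 genes tested. DESeq2 called 3 members (1.02% of all genes). With the block *Cep250*, *Crocc*, *Ccdc88b*, *Cep131* and *Tubgcp6* were lower there, at a background of 1.42% of all genes lower. At 2.6 mg/ml *Stil* was higher (4.29% of all genes) and *Crocc*, *Ccdc88b*, *Cep131* and *Tubgcp2* were lower (3.58% of all genes). The block added *Ccdc88a*, *Sass6* and *Poc1b* as higher (background 12% of all genes) and *Cep250* and *Tubgcp6* as lower (background 9.62%). *Ccdc88a* encodes girdin, and was at 22.4, 64.7 and 173 CPM at 2.6 mg/ml and at 10.4 to 98.4 CPM in suspension. *Sass6*, the cartwheel protein of new centrioles, was at 2.71 ± 1.65 CPM at 2.6 mg/ml (SD, n = 3) and at 0.914 ± 0.323 CPM in suspension (SD, n = 6). The 5 calls at 2.6 mg/ml became 0 in edgeR without replicate 2 or without replicate 3, where 9 and 5 had an unadjusted p under 0.05. They became 0 without the single 2.6 mg/ml library of replicate 3 (8 unadjusted), 1 without that of replicate 2, and 3 without replicate 2 of the suspension titled plus CCL19.

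At 3.5 mg/ml *Poc1b* was higher (1.97% of all genes) and *Crocc*, *Akna*, *Ccdc88b*, *Cep131*, *Cntrob* and *Tubgcp6* were lower (2.93% of all genes). With the block *Stil* and *Cetn2* joined those higher (8.03% of all genes) and *Pcnt*, *Cep250* and *Tubgcp2* those lower (10.4%). *Cetn2* was at 11.5, 18.6 and 29.7 CPM at 3.5 mg/ml and at 14.1, 13.4 and 34.3 CPM at 4.4 mg/ml, against 8.37 to 18.1 CPM in suspension. The 7 calls at 3.5 mg/ml became 0 in edgeR without the block when any 1 replicate was left out. There 10, 8 and 10 members had an unadjusted p under 0.05. They became 4 without the replicate 2 library of 2.6 mg/ml or of the suspension titled plus CCL19.

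The densest gel gave the most calls among the members, as it did over all genes tested. At 4.4 mg/ml *Stil* and *Plk4* were higher (6.55% of all genes) and *Pcnt*, *Cep250*, *Crocc*, *Akna*, *Odf2*, *Ccdc88b*, *Cep131*, *Cntrob* and *Tubgcp6* were lower (8.29% of all genes). The median of the 45 genes was -0.57 there, against 0.005 over all genes tested, and 35 of 45 were below 0. It did not lie below 0 at every density, with -0.27 at 1.7 mg/ml (33 of 45 below 0), 0.14 at 2.6 mg/ml (19 below 0) and -0.14 at 3.5 mg/ml (27 below 0). *Cep250* changed by -1.95 ± 0.51 (log2, SE; adjusted p = 0.023) and *Tubgcp6* was at 2.75 to 5.63 CPM (-1.90 ± 0.37, adjusted p = 0.0057). The block raised the count to 16, with *Cetn2* and *Poc1b* added as higher (15.8% of all genes) and *Cdk5rap2*, *Cep68* and *Poc5* as lower (16.2% of all genes). *Poc5*, a centriole lumen protein, was at 3.28 ± 0.77 CPM at 4.4 mg/ml (SD, n = 3) and 6.29 ± 2.20 CPM in suspension (SD, n = 6). The 11 calls became 5 without replicate 1, 0 without replicate 2, where 11 members had an unadjusted p under 0.05, and 7 without replicate 3. With offsets for GC content and exon length, described below, 8 passed, of which *Stil*, *Plk4* and *Poc1b* were higher (8.25% of all genes) and *Crocc*, *Akna*, *Ccdc88b*, *Poc5* and *Tubgcp6* lower (8.08% of all genes). *Cep250* (-1.32, adjusted p = 0.18), *Pcnt* (-0.50, 0.21), *Odf2* (-0.40, 0.24), *Cep131* (-1.22, 0.103) and *Cntrob* (-1.24, 0.101) then did not pass. With the offsets and the block together 19 members passed, a count that stands without a share of all genes. *Cep250*, *Pcnt*, *Cep131* and *Cntrob* were among those lower, whereas *Odf2* did not pass.

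**Figure D3:**
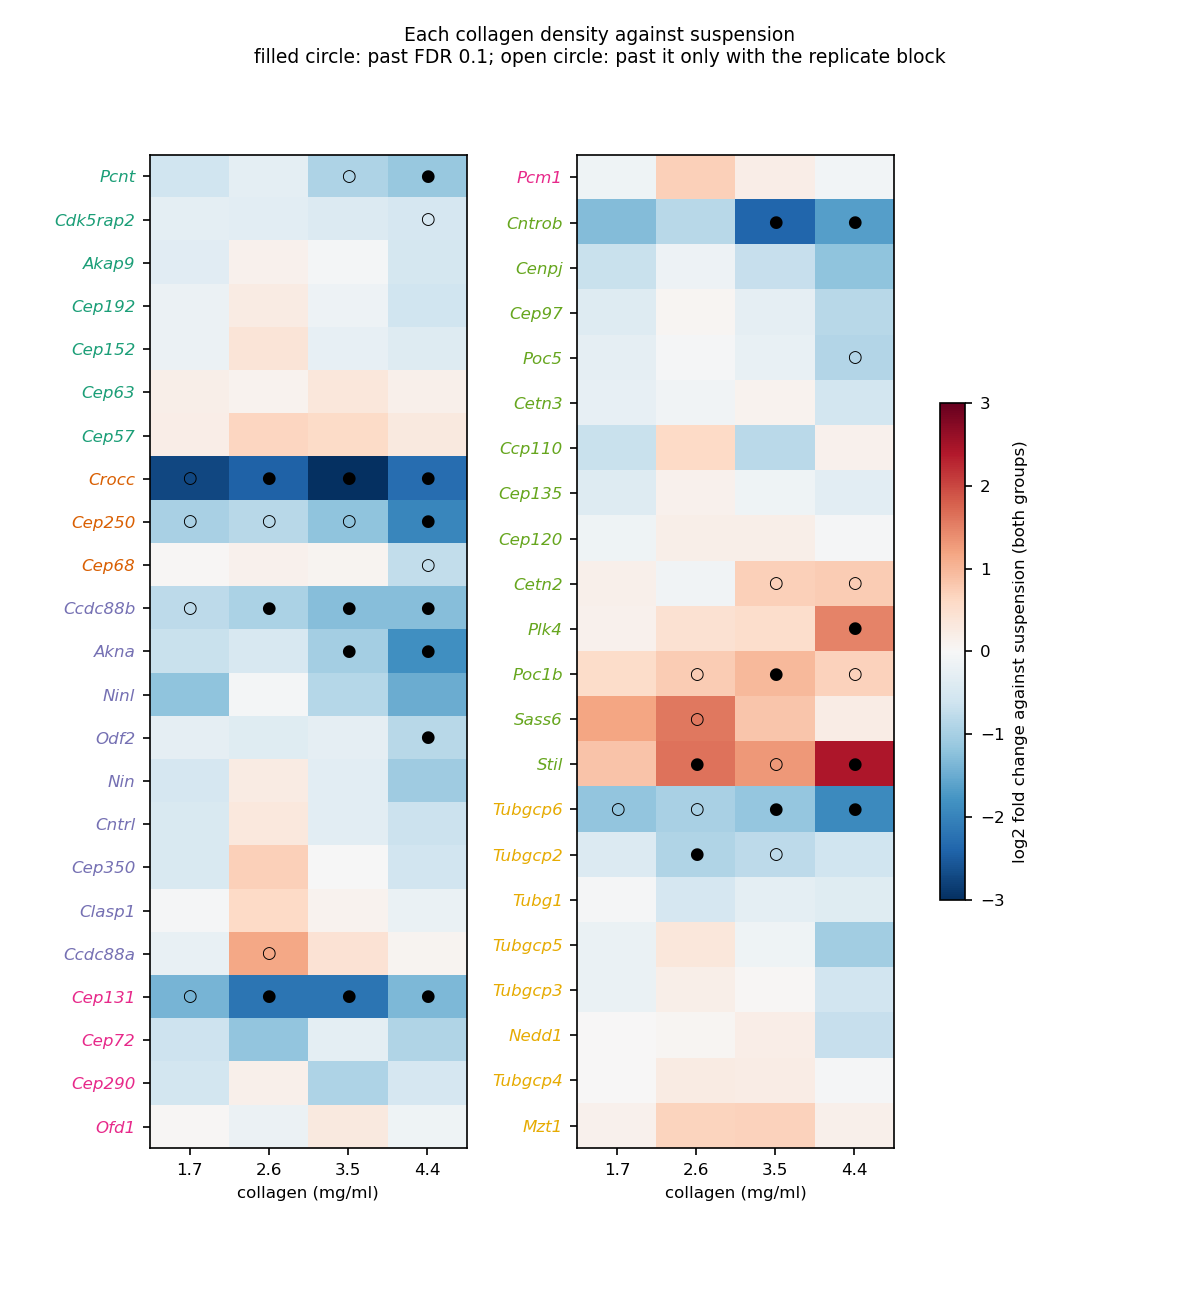
Log2 fold change of the 45 genes at each of the 4 collagen densities (columns, mg/ml) against the 6 suspension libraries, in the order and role colours of the plot of all gels; filled circles passed an FDR of 0.1 and open circles passed only with the replicate block. Crocc, Cep250, Ccdc88b, Cep131 and Tubgcp6 carry a circle at every density, and the 4.4 mg/ml column holds the most.

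Finally, the gels were compared among themselves. For 27 of the 45 genes the 2.6 mg/ml gel had the top mean of the 4 densities, and for 24 the 4.4 mg/ml gel had the bottom mean, which describes 3 libraries per group. Replicate 3 of 2.6 mg/ml was the highest of its group in 34 of the 45 genes, and without it the 2.6 mg/ml gel had the top mean in 10 genes and the 3.5 mg/ml gel in 22. In that library the median member deviated by 0.72 on the log2 scale from its mean over all libraries, against -0.35 and 0.19 in replicates 1 and 2, and the deviations of all genes had r of -0.51 with GC content. No member passed in edgeR, neither for a linear trend over density nor for 4.4 against 1.7 mg/ml, and 0.00722% of all genes passed in each. The unadjusted p was under 0.05 for 3 and 4 members, and for 997 and 1061 of the 13844 genes tested. DESeq2 called 1 member in each (0.881% and 1.06% of all genes). With the block and the GC and exon length offsets 3 members passed in each, *Stil* and *Plk4* as higher and *Akna* as lower, against 4.75% and 6.63% of all genes, a background near the members' own share. With the replicate block *Akna* alone passed, with -0.45 ± 0.10 on the log2 scale per mg/ml (adjusted p = 0.063, 0.65% of all genes called lower) and -1.18 ± 0.30 between the ends (adjusted p = 0.078, 0.607% of all genes called lower). *Stil* and *Plk4* had slopes of 0.48 ± 0.16 and 0.53 ± 0.18 per mg/ml with the block and did not pass (adjusted p = 0.16 and 0.19). *Cep250* was at -0.32 ± 0.10 per mg/ml with the block (adjusted p = 0.15).

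The 2 suspension groups were not distinguished by any member in edgeR, with or without the block, or by DESeq2, and 0% of all genes tested passed in edgeR. The unadjusted p was under 0.05 for 5 members in edgeR and for 9 in DESeq2, counts that stand without a share of all genes. Nevertheless 37 of 45 members were lower in the group titled plus CCL19, with a median of -0.47 against -0.003 over all genes. Here r with GC content was 0.59 over the members and 0.46 over the genes tested, and with the GC and exon length offsets the member median was -0.18. *Nin* was at 19.4 ± 2.94 against 42.6 ± 27.7 CPM (SD, n = 3 each; -1.13 ± 0.62, adjusted p = 0.76). *Clasp1* was at 33.7, 22.6 and 33.5 CPM in replicates 1, 2 and 3 of the group titled plus CCL19 and at 49.6, 71.6 and 58.6 CPM in the other, ranges that did not overlap (-1.002 ± 0.31, adjusted p = 0.76).

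Base composition moved with these values. Over the 45 genes, the log2 fold change in collagen against suspension had Pearson's r of -0.73 with the GC content of the longest transcript, and over 13834 genes tested r was -0.21, both across genes, which are not independent replicates. The 10 genes that fell had a median GC content of 56.4%, the 2 that rose 47.8%, the 33 others 44.8% and all genes tested 49.8%. Exon length had r of -0.12 among the members. After correction of each library for GC content and exon length, r over the members was -0.49 and 8 of 45 passed, namely *Stil* and *Poc1b* as higher (9.3% of all genes) and *Crocc*, *Ccdc88b*, *Cep131*, *Cntrob*, *Tubgcp2* and *Tubgcp6* as lower (10.3% of all genes). *Crocc* was then at -2.02 and *Ccdc88b* at -0.67, whereas *Cep250* (-0.75, adjusted p = 0.23), *Akna* (-0.53, 0.18), *Pcnt* (-0.23, 0.40) and *Odf2* (-0.10, 0.70) did not pass. With the same correction and the block 13 passed (18.5% of all genes higher, 18.1% lower), among them *Cep250* (-0.82, adjusted p = 0.0011) and *Akna* (-0.63, 0.015), but not *Pcnt* (-0.25, 0.24) or *Odf2* (-0.11, 0.58).

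**Figure D4:**
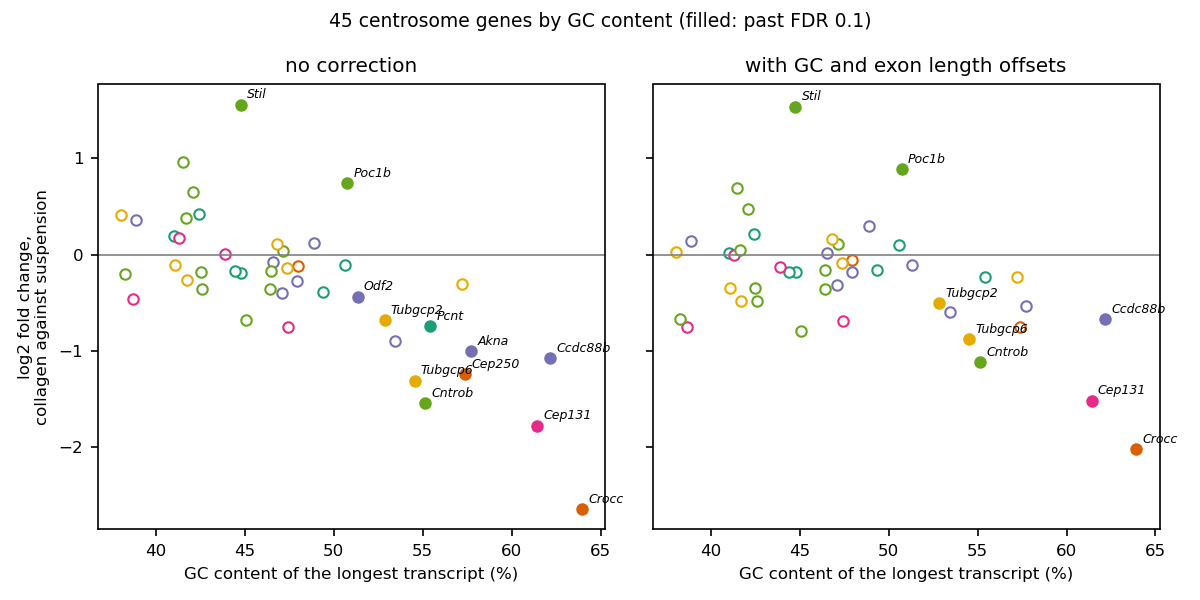
Log2 fold change in collagen against suspension of the 45 genes against the GC content of their longest transcript, without correction (left) and with offsets for GC content and exon length (right), coloured by role as in the plot of all gels; filled points passed an FDR of 0.1. Genes of higher GC content lie lower in both panels, with r of -0.73 on the left and -0.49 on the right.

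For other genes of the centrosome and the base of the cilium, a list of 64 in the table with 62 tested, 7 were higher and 10 lower in collagen, with a median of -0.22, beside 7.78% and 12.4% of all genes, and 11 and 18 passed with the block, beside 15.6% and 19.3%. The 3 with the lowest p were *Fbf1*, *Cep164* and *Cep89*. *Fbf1* fell from 14.4 ± 5.34 CPM in suspension (SD, n = 6) to 4.39 ± 1.65 CPM in collagen (SD, n = 12; edgeR adjusted p = 0.0024), *Cep164* from 15.9 ± 8.45 to 5.40 ± 1.36 CPM (adjusted p = 0.0028) and *Cep89* from 13.8 ± 2.65 to 6.74 ± 1.55 CPM (adjusted p = 0.0031). Among 18 proliferation genes *Pcna* rose and *Mcm3* fell in collagen, and with the block *Tyms* was also higher (0.44 on the log2 scale, edgeR adjusted p = 0.075) and *Mcm2* (-0.61, 0.015) and *Mcm5* (-0.69, 0.045) lower, while the mitotic genes did not pass, with *Top2a* at 15.3 ± 9.59 CPM in suspension and 12.9 ± 5.94 CPM in collagen and *Mki67* at 9.88 ± 7.62 and 14.2 ± 9.89 CPM. The summed level of the 18 ran from 129 to 434 CPM in suspension and from 162 to 330 CPM in collagen. Of the other lists, 2 of 9 neutrophil markers were lower in collagen, and none of 8 macrophage, 4 lymphocyte and 6 fibroblast markers tested passed. With the block 5 macrophage markers and 2 fibroblast markers were higher and 1 lymphocyte marker lower. The summed fibroblast markers reached 128 CPM in replicate 2 of 2.6 mg/ml and at most 21.1 CPM elsewhere.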

How the data were processed

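RNA of 18 bulk samples was sequenced as 50-base single-end reads after TruSeq Stranded mRNA preparation. The authors deposited raw read counts per gene, aligned with STAR 2.7.0f to GRCm38 per their methods. Their methods name RSEM for TPM values, whereas the tool behind the deposited counts and its use of strand are not given in the sources used here. Samples were grouped by title. Counts were fitted with edgeR 4.0.16 (R 4.3.3): filterByExpr, TMM scaling, 1 mean per group over all 18 libraries, quasi-likelihood F-tests, and Benjamini-Hochberg adjustment over 13844 genes at an FDR of 0.1. The biological coefficient of variation was 49.0%, or 33.1% with the replicate block. CPM use TMM-scaled totals. Alternatives were the replicate block, DESeq2 1.42.0, its size factors, no filter, GC and exon length offsets (loess, span 0.5), and omitted libraries. The fits with omitted libraries had no block, so differences between replicate numbers stayed in their spread. Exon models were those of GENCODE M21. The pipeline was tested on simulated data. P-values cover the spread between these replicates, whose independence beyond "biological replicate" is not described.

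The 45 genes, their roles and all lists were chosen with earlier results of these data known. Named genes were those the study handled as proteins, every gene called in any of 8 comparisons without or with the block, and the 3 lowest p of the wider centrosome list. Promoters were from RefSeq (36 of 45 members matched).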

Additional observations from a re-analysis of the deposited data

Results flagged for a closer look

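The effect of collagen on *Akna* passed as different between densities in the fit with the replicate block, but not in the fit without it. With the replicate block, 4.4 mg/ml and 1.7 mg/ml, each set against the same suspension libraries, differed by -1.18 on the log2 scale (edgeR adjusted p = 0.078). *Akna* was lower at 4.4 mg/ml in 3 of 3 replicates, which adds no independent support, since it was picked from these same libraries. Without the block the same difference did not pass (adjusted p = 0.38). Groups of 3 libraries are too small for the gap test of outlying samples, which was not run. Libraries that stand apart are described with the results they touch.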

How the results depend on the processing

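In collagen against suspension, between 8 and 14 members passed under the tools, filters, offsets and block tried, against 12 in the fit described, and 7 to 13 when libraries were left out, the lowest without replicate 2. The replicate block, for which the numbers pair the samples, gave 14 there. With it, the trend and the end densities had 1 call each (0 without it), the 1.7 mg/ml gel 5 (0 without), the 2.6 mg/ml gel 10 (5 without), the 3.5 mg/ml gel 12 (7 without) and the 4.4 mg/ml gel 16 (11 without). DESeq2 gave 1, 1, 3 and 8 for the trend, the end densities, 1.7 and 2.6 mg/ml. Without a filter on low counts 1 gene passed at 1.7 mg/ml. The GC and exon length offsets gave 3 and 4 in the 2.6 and 3.5 mg/ml gels. They gave 8 at 4.4 mg/ml. Joined with the block, they gave 3 for the trend, 3 between the ends, and 2, 8 and 19 in the gels of 1.7, 2.6 and 4.4 mg/ml. The same fit called 4.75% of all genes for the trend and 6.63% between the ends. Over all gels it called 18.5% of all genes higher and 18.1% lower. Counts given here or above without a share of all genes do not set the members apart from other genes. When libraries were left out, calls ranged from 0 to 6, 0 to 7 and 0 to 11 in the 3 denser gels, in order of density, and stayed at 0 for 1.7 mg/ml (3 to 7 at an unadjusted p under 0.05), the trend, the end densities and the suspension groups. The cause of these shifts was not tested, apart from the smaller number of samples. The omissions of single libraries were chosen after seeing the data.

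Of the values for single genes, 604 kept direction and side of the threshold, 54 lost a call, 20 gained one and 22 changed sign, none of them called. Over all gels, omissions moved *Cep68* from -0.318 to 0.077, *Pcm1* from -0.169 to 0.558 and *Cep120* from -0.096 to 0.190, with *Pcm1* at -0.00060 with offsets. At 4.4 mg/ml they moved *Ccdc88a* from -0.343 to 0.687, *Sass6* from -0.331 to 0.802, *Tubg1* from -0.620 to 0.029, *Pcm1* from -0.415 to 0.437 and *Cep120* from -0.350 to 0.242. There the offsets gave *Clasp1* 0.172 (0.143 with the block) and *Cep120* 0.098 (0.077 with the block), and DESeq2 and its size factors gave *Cep120* 0.0134 and 0.0127.

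Depth limits *Ninl*, *Crocc*, *Cep131*, *Cntrob*, *Cep72*, *Sass6*, *Ccp110*, *Cep290*, *Cep97*, *Cenpj* and *Stil*, which held few counts in some libraries.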
